A study of Equus caballus with 2 samples.

Results

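CpG sites that appeared in the methylation list of only one of a pair of libraries were examined: 1 library of an equine sarcoid and 1 library of skin distant from the tumour, both of horse 1. A CpG was a member if it had 20 or more reads in one library, both strands summed, and was absent from the list of the other. The members were thus chosen by measured values, coverage in one library and absence from the other, and their counts are a description with no test. Of 1263512 CpGs listed in either library, 14072 were members. Of these, 7765 were listed in sarcoid only and 6307 in skin only.

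Sarcoids are common skin tumours of horses, built of fibroblasts and linked to infection with bovine papillomavirus. The study compared the DNA methylation of the tumour with that of skin from the same animal. The labels gave no genotype, breed or treatment for either tissue. Tissue markers could not be checked, since only methylation at coordinates was used, and no genome build is given in the sources used here. For the same reason no gene, exon or sequence is named, and positions are printed as the deposited lists give them.

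Reduced representation bisulfite sequencing (RRBS) relies on MspI, an enzyme that cuts at CCGG, and sequences the short fragments between neighbouring sites. Bisulfite turns unmethylated cytosine into a base read as T, so reads with C count as methylated. Each fragment starts and ends in a CpG, and a read starts at one end of the fragment, on the plus strand at its left end and on the minus strand at its right end. A fragment shorter than the read is therefore covered on both strands along its whole length, while the reads of a longer fragment cover different strands at its ends.

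The lists summed to 35970547 reads over cytosines in sarcoid and 48650606 in skin, with a median coverage per CpG of 24 and 30 reads. Of the cytosines listed, 0.113% in sarcoid and 0.112% in skin had fewer than 5 reads, so that up to 4 reads on each strand may lie behind an absence. Each tissue had 1 library and no replicate. Shares are given with Wilson 95% intervals, which cover counting error only. Neighbouring CpGs share reads, and PCR copies without molecular identifiers are not independent molecules, so the intervals are too narrow.

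Absence was rare among well covered CpGs and was concentrated near the coverage limit. The 7765 sarcoid-only CpGs were 1.14% of the 681288 CpGs with 20 or more reads in sarcoid, and the 6307 skin-only CpGs were 0.788% of 799954 in skin. At any coverage, 59808 CpGs of the sarcoid list were absent from skin, and 115778 of the skin list were absent from sarcoid. Just inside the limit, at 20 to 24 reads, 3.60% of sarcoid CpGs and 3.87% of skin CpGs were absent from the other list. Just outside it, at 15 to 19 reads, the shares were 5.06% and 8.63%. The mean methylation level of absent CpGs was 60.9% just inside and 58.6% just outside the limit in sarcoid, and 58.1% and 57.1% in skin. At 100 reads or more, 7 of 18109 CpGs in sarcoid and 2 of 61296 in skin were absent from the other list. The median coverage of members was 24 reads in sarcoid and 23 in skin, with maxima of 387 and 122.

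**Figure D1:**
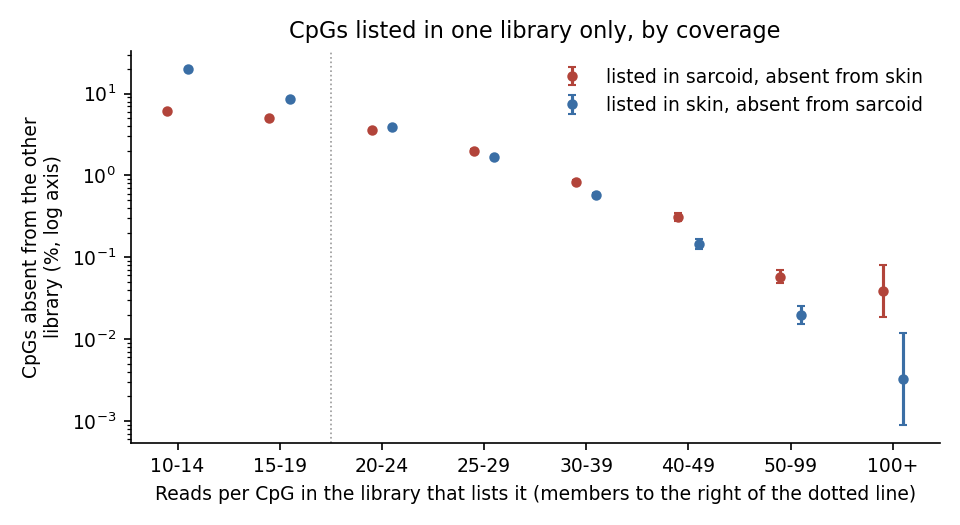
The percent of CpGs absent from the other library (log axis) is plotted by reads per CpG in the library that lists them, for sarcoid and for skin; bars are Wilson 95% intervals and members lie right of the dotted line. The share falls with coverage in both libraries, to 0.0387% of sarcoid CpGs and 0.00326% of skin CpGs at 100 reads or more.

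The groups differed in the strands that their reads covered. Both strands were listed at 89.8% of sarcoid-only CpGs (89.1 to 90.4). Among CpGs listed in both libraries, weighted to the same coverage classes (hereafter shared CpGs of equal coverage), the share in sarcoid was 46.6%. The share was higher at the members on 31 of 31 chromosomes. Skin-only CpGs went the other way: 34.7% had both strands (33.5 to 35.9), against 41.3% of shared CpGs of equal coverage in skin, and their share was higher on 6 of 31 chromosomes. Of the skin-only CpGs, 32.8% were read on the plus strand alone and 32.5% on the minus strand alone, against 5.11% and 5.13% of the sarcoid-only ones. Among absent CpGs the share with both strands changed with coverage. In sarcoid it was 33.0% at 10 to 14 reads, 74.4% at 15 to 19 and 88.5% at 20 to 24. In skin it was 14.1% at 15 to 19 reads, 27.1% at 20 to 24, 64.0% at 40 to 49 and 38.6% at 50 to 99.

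Sarcoid-only CpGs were grouped more than skin-only CpGs. A run was defined as 5 or more members with no other listed CpG between them. In sarcoid, 3901 members (50.2%) lay in 654 runs and 516 members stood alone. In skin, 1630 members (25.8%) lay in 260 runs and 1313 stood alone. No share in such runs is given here for shared CpGs of equal coverage. Whether grouping of this extent is particular to members was thus not tested. The longest runs held 12 CpGs in either group, and 15 sarcoid-only and 22 skin-only runs held 10 or more.

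Nearly all runs fitted within a single 75 bp read. The median span of sarcoid-only runs was 60 bp, with 49 to 62 bp between the 10th and 90th percentiles. That of skin-only runs was 55 bp, with a wider range of 26.9 to 74.0 bp. Of the runs, 639 (97.7%) in sarcoid and 243 (93.5%) in skin spanned at most 75 bp, while 12 and 1 spanned over 1000 bp. Within a run the highest coverage was a median of 1.03 times the lowest in sarcoid and 1.05 times in skin, so its CpGs had nearly the same number of reads. All CpGs were read on both strands in 618 (94.5%) of the sarcoid-only runs and in 45 (17.3%) of the skin-only runs. All CpGs were read on 1 and the same strand in 27 (4.13%) and 141 (54.2%).

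**Figure D2:**
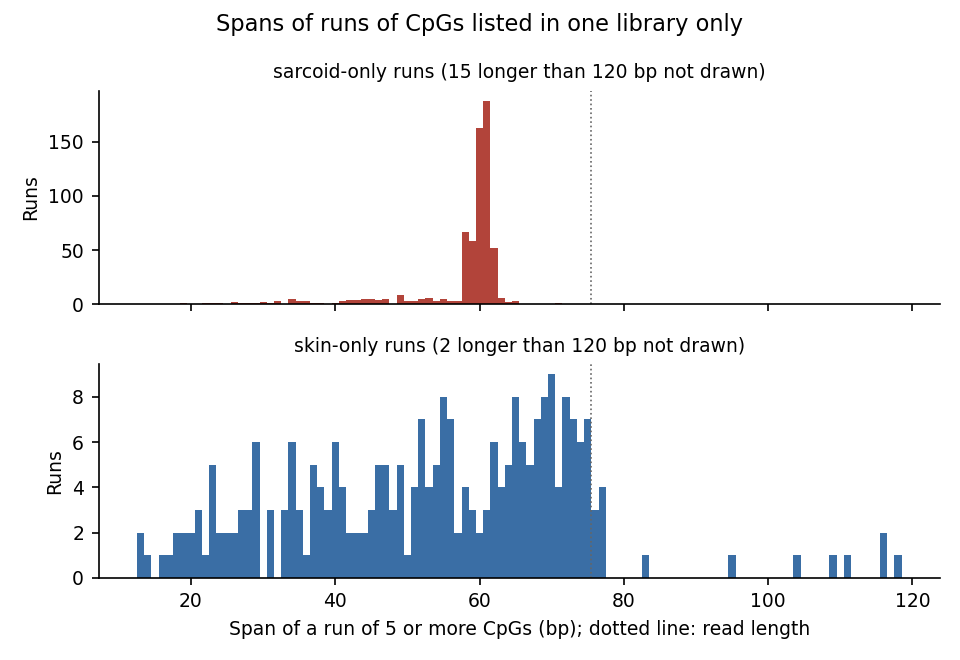
The number of runs is plotted by span in bp, for sarcoid-only runs above and skin-only runs below; the dotted line is the read length of 75 bp and longer runs are counted in the panel titles. Sarcoid-only runs stand in a narrow peak around their median of 60 bp, and skin-only runs are spread below the read length around a median of 55 bp.

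The surroundings of the runs differed as well. The nearest shared CpG lay a median of 3823 bp from a sarcoid-only run and 42 bp from a skin-only run. It lay within 100 bp of 106 sarcoid-only runs (16.2%) and of 158 skin-only runs (60.8%), and within 1000 bp of 30.4% and 83.5%. Most skin-only runs thus had CpGs listed in both libraries beside them, and most sarcoid-only runs did not.

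The 5 sarcoid-only runs with most CpGs included 3 of a single short fragment's length and 2 with a long gap inside. On chromosome 6, 12 CpGs from 26044453 to 26044510 (58 bp) had 43 to 47 reads each in sarcoid, both strands covered, and none listed in skin. Their level was 1.08% (0.497 to 2.34), so this run was nearly unmethylated. The nearest shared CpGs, 99 bp to the left and 61 bp to the right, had 75 and 74 reads in sarcoid, against 65 and 24 in skin.

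A similar run of 12 CpGs lay on chromosome 25 from 33504709 to 33504761 (53 bp), with 32 to 34 reads each. None of its 398 reads was methylated, which allows a level of up to 0.956% by the Wilson interval. The shared CpG 5 bp to its right had 34 reads in sarcoid and 8 in skin, so skin was thinly covered there too. On chromosome 2, 11 CpGs from 3215382 to 3215439 (58 bp) had 27 to 29 reads each and a level of 0% (upper bound 1.20%).

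The 2 other runs joined fragments far apart. On chromosome 11, 12 CpGs from 12276713 to 12292401 had 26 to 43 reads and a level of 75.1% (70.4 to 79.2), with a gap of 15570 bp inside the run. On chromosome 22, 11 CpGs from 18952643 to 18959577 had 31 to 37 reads and a level of 76.3% (71.7 to 80.3), with a gap of 6816 bp inside. These spans hold long stretches with no CpG listed in either library, so they measure distance between fragments rather than the extent of an absence.

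Of the 5 skin-only runs with most CpGs, 4 lay on a single strand within a read length. On chromosome 2, 12 CpGs from 60925697 to 60925766 (70 bp) were read on the minus strand alone with 33 to 59 reads each, at a level of 48.2% (44.2 to 52.2). On chromosome 24, 12 CpGs from 42173273 to 42173340 (68 bp) had 33 to 34 reads on the plus strand alone and a level of 0% (upper bound 0.935%). The shared CpG 5 bp to its left had 18 reads in sarcoid and 69 in skin.

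The next of these runs were also read on 1 strand and unmethylated. On chromosome 13, 12 CpGs from 4946075 to 4946129 (55 bp) had 25 to 26 reads on the plus strand and a level of 0% (upper bound 1.22%). On chromosome 14, 12 CpGs from 1619461 to 1619528 (68 bp) had 20 reads each on the minus strand and a level of 0% (upper bound 1.58%). The exception lay on chromosome 15 from 82029122 to 82034423, where 12 CpGs with 20 to 36 reads had a level of 87.3% (83.2 to 90.5) and a gap of 5213 bp inside the run.

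Long stretches without any CpG of the other library were few. Members lay in 2191 stretches of the sarcoid list with no skin CpG, of median length 60 bp, of which 120 were longer than 10 kb and 13 longer than 100 kb. In skin there were 2764, of median length 45 bp, with 75 longer than 10 kb and 2 longer than 100 kb. The longest in sarcoid ran over 366302 bp of chromosome 5 (83160578 to 83526879) and held 7 listed CpGs, and the longest in skin ran over 267218 bp of chromosome 27 (31549444 to 31816661) and held 2.

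To relate the members to fragment length, CpGs were gathered into clusters set apart by gaps of over 300 bp. The span of a cluster whose first CpG was listed on the plus strand and whose last on the minus strand approximates the length of its MspI fragment where the span is short. Of the clusters of over 150 to 200 bp, 373 of 6819 had the strands of a single fragment, and of those of over 200 to 300 bp 514 of 7492, so spans of over 150 bp do not approximate the length of a fragment. There were 84283 such clusters of at most 300 bp, and 63219 of them had every CpG in both libraries. The 84283 clusters held 538593 of the 1263512 CpGs listed in either library at any coverage. They held 6129 (78.9%) of the sarcoid-only and 2593 (41.1%) of the skin-only CpGs.

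Clusters listed in sarcoid alone had a narrow range of spans. The 1181 of them with a member had a median span of 60 bp, with 58 to 63 bp between the 5th and 95th percentiles. In all, 1105 (93.6%) spanned 58 to 62 bp, a range chosen after the values were seen, and 1175 (99.5%) spanned at most 75 bp. The 341 clusters listed in skin alone were longer, with a median of 103 bp, 80 to 127 bp between the 5th and 95th percentiles, and none at 58 to 62 bp. Of the clusters listed wholly in both libraries, 12.1% spanned 58 to 62 bp, and their median was 78 bp. Among clusters holding a member, 423 of 1604 (26.4%) with a sarcoid-only CpG also held a CpG of the skin list, against 924 of 1265 (73.0%) with a skin-only CpG that also held one of the sarcoid list.

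The depth of shared clusters, which the choice of members did not use, also changed with span. At 50 to 60 bp, 4124 shared clusters had a median of 32.7 reads per CpG in sarcoid and 11 in skin, a median log2 ratio of 1.60, and 98.9% of them were deeper in sarcoid. At 61 to 75 bp the medians were 37.5 reads in sarcoid and 27.0 in skin over 25071 clusters (log2 ratio 0.47). At 91 to 110 bp they were 20.3 reads in sarcoid and 42.8 in skin over 8734 clusters (log2 ratio -1.01), and 1.01% were deeper in sarcoid. Up to about 100 bp the median log2 ratio was lower at longer spans, with 1.74 at 58 bp, 1.01 at 64 bp, -0.03 at 72 bp and -1.05 at 100 bp. Beyond that it was less negative, at -0.57 from over 110 to 150 bp, -0.49 up to 200 bp and -0.60 up to 300 bp. In clusters with the strands of a single fragment, a choice made after seeing the data, it was -0.82 from over 110 to 150 bp. These ratios are of reads as counted, not scaled to the totals of 35970547 reads in sarcoid and 48650606 in skin. A log2 ratio of 0 thus marks equal counts and not equal depth relative to the library.

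Most clusters held no member. Short clusters with a member held mainly sarcoid-only CpGs, and longer ones with a member more often held skin-only CpGs. At 50 to 60 bp, 768 of 5617 clusters (13.7%) held a sarcoid-only CpG and none held a skin-only CpG. At 61 to 75 bp, 568 of 26650 (2.13%) held a sarcoid-only CpG and 22 (0.0826%) a skin-only one. At 76 to 90 bp these were 9 of 14200 clusters (0.0634%) and 179 (1.26%), and at 91 to 110 bp none of 13481 and 416 (3.09%).

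Beyond 110 bp both kinds of member were found. Sarcoid-only CpGs lay in 0.719% and skin-only CpGs in 2.36% of clusters up to 150 bp, in 1.51% and 2.45% up to 200 bp, and in 1.12% and 3.27% up to 300 bp. In clusters with the strands of a single fragment sarcoid-only CpGs were rarer, in 0.0641% (5 of 7801) up to 150 bp. From over 150 to 200 bp 2 of 373 such clusters held one, and from over 200 to 300 bp 2 of 514. The skin-only share in these clusters was 2.90% up to 150 bp. It was 0.268% (1 of 373) from over 150 to 200 bp and 1.36% (7 of 514) from over 200 to 300 bp. Clusters listed wholly in one library were concentrated at short and middle spans. Sarcoid-only ones made up 12.4% of clusters (697) at 50 to 60 bp and 1.79% (478) at 61 to 75 bp, and skin-only ones 1.22% (164) at 91 to 110 bp.

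**Figure D3:**
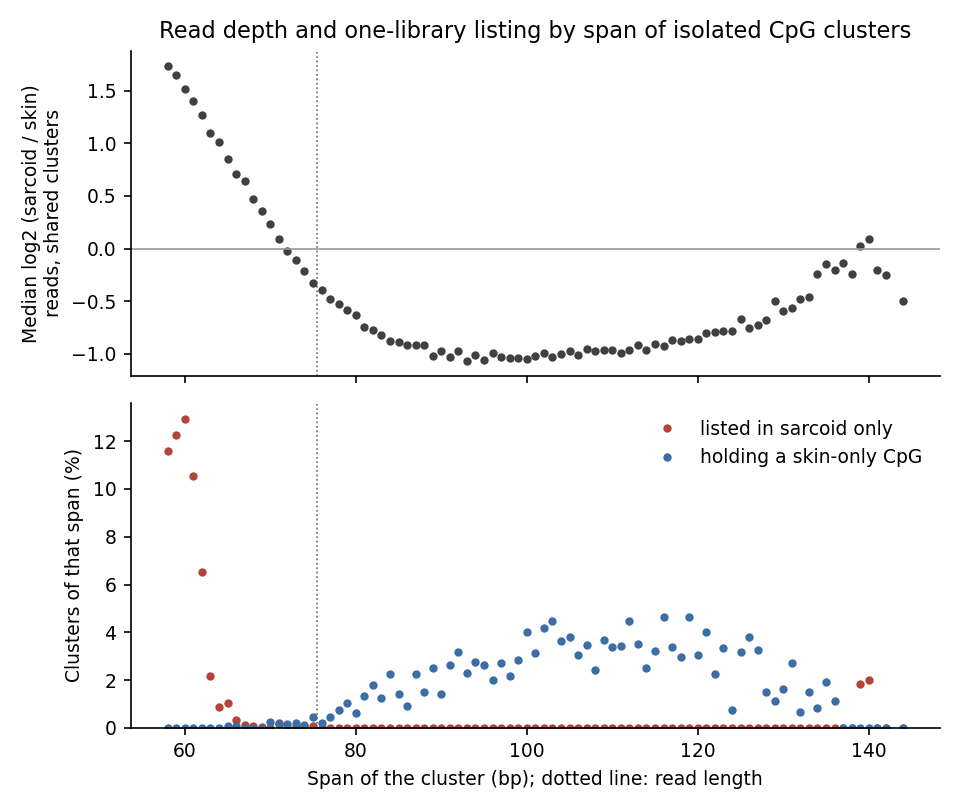
The upper panel plots the median log2 ratio of sarcoid to skin reads in clusters listed in both libraries, and the lower panel the percent of clusters listed in sarcoid only and the percent holding a skin-only CpG, each by cluster span in bp. Sarcoid-only clusters peak at 12.9% of the clusters of 60 bp, where the log2 ratio is 1.51, and clusters holding a skin-only CpG are 0.248% at 70 bp and 4.02% at 100 bp, where the ratios are 0.24 and -1.05.

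Depth near the runs was compared with the rest of the chromosome, since a loss of DNA over a longer stretch in one tissue would also lower the reads of shared neighbours there. Shared CpGs within 10 kb of a sarcoid-only run had a log2 ratio of sarcoid to skin reads that differed from their chromosome's median by a median of -0.01 (interval -0.03 to 0.01, 14268 CpGs). Within 1 kb of a sarcoid-only run this median was -0.06 (-0.11 to -0.01, 2336 CpGs). Clusters were also split by span, a choice made after seeing the data, and each class was compared with shared CpGs of its own class. Over all 339904 shared CpGs in clusters over 75 bp the quartiles were -0.41 and 0.50. In clusters over 75 bp the median was 0.04 within 10 kb (0.02 to 0.07, 4108 CpGs) and 0.13 within 1 kb (0.05 to 0.24, 579 CpGs). In clusters of at most 75 bp these were 0.03 (-0.03 to 0.08, 1515 CpGs) and -0.01 (-0.30 to 0.63, 102 CpGs). Near skin-only runs the median within 10 kb was -0.11 (-0.12 to -0.09, 14406 CpGs), and -0.03 in clusters over 75 bp (-0.06 within 1 kb). Within 1 kb it was -0.15 over all shared CpGs (-0.19 to -0.11, 3914 CpGs). In clusters of at most 75 bp within 1 kb it was 0.15 (0.11 to 0.26, 86 CpGs). A positive value means more reads in sarcoid. Copy number was not measured in another way, and its part in the absences was not tested.

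The methylation of the members was higher than that of shared CpGs of equal coverage. The mean level was 57.6% at sarcoid-only CpGs, against 46.7% at shared ones in sarcoid, and it was higher on 30 of 31 chromosomes. Levels of at most 20% were found at 18.1% of sarcoid-only CpGs (17.2 to 18.9) and 36.7% of shared ones. Levels of at least 80% were found at 37.4% (36.3 to 38.5) and 32.0%, and levels between at 44.5% and 31.3%.

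Skin-only CpGs had a mean level of 58.3%, against 49.6% at shared CpGs of equal coverage in skin, and it was higher on 29 of 31 chromosomes. Levels of at most 20% were found at 23.5% (22.5 to 24.6) and 32.7%, and levels of at least 80% at 42.9% (41.7 to 44.2) and 33.7%. Members with no methylated read made up 8.38% of the sarcoid-only group, against 25.3% of shared CpGs in sarcoid, and 16.0% of the skin-only group, against 22.5% in skin. Where a single strand was listed, the order turned in sarcoid, with a mean of 40.6% at sarcoid-only and 42.6% at shared CpGs, while it was 56.2% at skin-only and 50.5% at shared CpGs in skin.

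**Figure D4:**
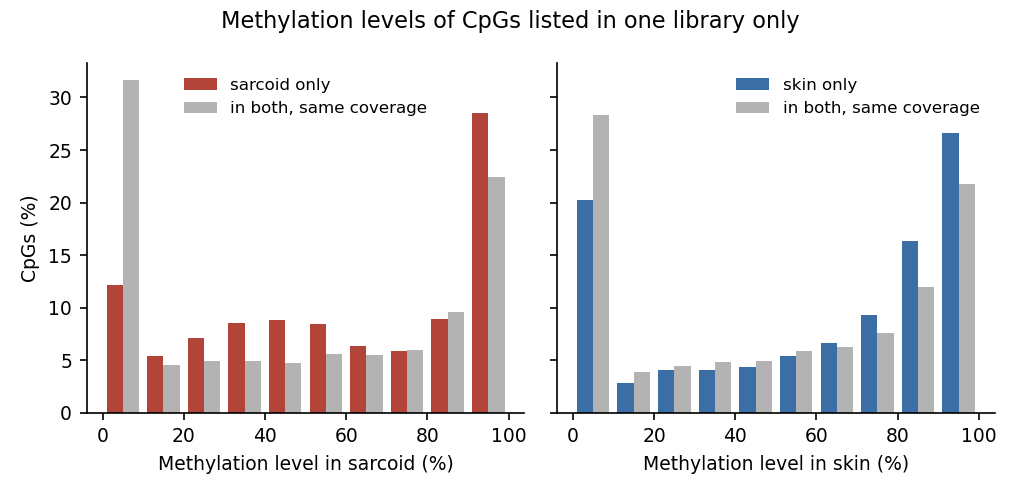
The percent of CpGs in each 10-point class of methylation level is plotted for members (coloured) and for CpGs listed in both libraries weighted to the same coverage (grey), in sarcoid on the left and in skin on the right. Sarcoid-only CpGs have fewer low and more intermediate levels than shared ones, and skin-only CpGs have more high levels.

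In short sarcoid-only clusters, intermediate levels lay mostly at the ends of the fragment. End repair in RRBS fills in the cut ends with unmethylated cytosine, so the cytosine at the far end of a read through a short fragment does not carry the level of the tissue. In sarcoid-only clusters of 50 to 75 bp, the first CpG had a mean level of 76% on the plus strand and 0.778% on the minus strand (535 CpGs with 10 or more reads on each). The last CpG had 0.541% on the plus strand and 75.4% on the minus strand (533 CpGs). CpGs inside the fragment had 83.4% and 83.0% (1394 CpGs). The strands lay 30 or more points apart at 90.3% of first, 6.38% of inside and 90.6% of last CpGs.

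With strands merged, first CpGs had a mean level of 39.5%, inside CpGs 83.2% and last CpGs 38.1%. Levels between 20% and 80% were found at 82.5%, 20.7% and 81.7% of them. Shared clusters of the same spans behaved likewise, with strands 30 or more points apart at 80.6% of first and 80.4% of last CpGs. The merged mean of sarcoid-only CpGs therefore includes fragment ends at which only the read-start strand carried methylation, and it understates the level inside these fragments.

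Taken inside the fragment alone, sarcoid-only CpGs had a higher level than shared ones. The mean was 83.2% at 2809 inside CpGs with 20 or more reads. It was 76.6% at 69529 shared inside CpGs of clusters of 50 to 75 bp, weighted to the same coverage but not by span. Without weights, the means at 50 to 60 bp were 82.4% at sarcoid-only and 62.7% at shared inside CpGs. At 61 to 75 bp they were 84.3% and 68.0%. Over 50 to 75 bp, with weights, the means in 1 kb tiles with 1 to 5 listed CpGs were 82.1% and 78.8%. With 6 to 10 they were 85.0% and 78.9%, and with 11 to 20 they were 73.8% over 86 CpGs and 45.0%. Skin-only CpGs had a mean level of 65.2% in clusters of 76 to 90 bp (285 CpGs), against 58.4% at shared CpGs of such clusters. In clusters of 91 to 110 bp it was 66.0% (814 CpGs) against 58.8%, and from over 110 to 150 bp it was 68.3% (543 CpGs) against 49.8%. These shared CpGs were not weighted and had a median coverage of 56, 49 and 37 reads, against 24, 23 and 23 at the members.

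CpG density was approximated by the number of CpGs listed in either library per 1 kb tile. Sarcoid-only CpGs lay in sparser tiles, with a median of 6 CpGs, against 10 at shared CpGs of equal coverage. Tiles of over 20 CpGs held 5.56% of them (5.08 to 6.10) and 23.9% of the shared ones, while tiles of at most 5 held 47.4% and 25.4%. Skin-only CpGs differed less, with a median of 10 CpGs per tile against 9, and 21.5% (20.5 to 22.5) against 21.6% in tiles of over 20.

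The share absent from the other list fell with density in sarcoid. It was 2.51% of sarcoid CpGs with 20 or more reads in tiles of 1 to 5 CpGs, 1.59% at 6 to 10, 0.543% at 11 to 20 and 0.222% above 20. In skin the same classes had 0.853%, 0.871%, 0.877% and 0.591%. Within each class the mean level of skin-only CpGs was above that of shared ones, for example 70.2% against 61.5% at 1 to 5 CpGs and 37.6% against 25% above 20. In sarcoid the mean with strands merged was 56.6% against 58.7% at 1 to 5 CpGs and 66.0% against 59.1% at 6 to 10. The order of these merged means thus turned in the sparsest tiles, but they include fragment ends. Inside the fragments of short clusters the order did not turn in tiles of 1 to 5 CpGs. The mean there was 82.1% at sarcoid-only and 78.8% at shared CpGs. The part of fragment ends in the turn was not tested.

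Members were spread over all 31 chromosomes in unequal shares. On 10 chromosomes (5, 6, 7, 12, 18, 21, 22, 25, 28 and 29) the sarcoid library was deeper relative to skin, by a log2 of 0.225 to 0.341 above the median chromosome. Sarcoid-only CpGs made up 1.33% (1.29 to 1.38) of the CpGs with 20 or more sarcoid reads there and 1.03% (1.00 to 1.06) on the other 21. Skin-only CpGs made up 0.444% (0.419 to 0.471) there and 0.951% (0.926 to 0.978) on the other 21. The deeper chromosomes held 41.2% of the sarcoid-only and 18.1% of the skin-only CpGs. They held 35.2% of all CpGs with 20 or more reads in sarcoid and 32.1% of those in skin.

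The share of sarcoid-only CpGs was highest on chromosome 29 with 2.18%, chromosome 18 with 1.98% and chromosome 19 with 1.93%. Chromosome 19 was not among the deeper ones. It was lowest on chromosomes 13, 10 and 3, with 0.644%, 0.792% and 0.865%. The share of skin-only CpGs was highest on chromosomes 3, 30 and 13, with 1.18%, 1.12% and 1.11%, and lowest on chromosomes 22, 18 and 21, with 0.369%, 0.372% and 0.386%. Chromosomes 3 and 13 were thus among the lowest for one group and the highest for the other, and chromosome 18 the reverse.

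The difference between the sets of chromosomes was also present among clusters of equal span. At 50 to 60 bp, 15.5% of clusters (13.9 to 17.3) were listed in sarcoid only on the deeper chromosomes and 11% (10.1 to 12.1) on the others, where shared clusters had a median log2 ratio of 1.81 and 1.49. At 61 to 75 bp these shares were 2.59% and 1.45%, with ratios of 0.70 and 0.37. At 91 to 110 bp, 1.84% (1.47 to 2.30) held a skin-only CpG on the deeper chromosomes and 3.64% (3.28 to 4.03) on the others, with ratios of -0.81 and -1.11. The span gradient was thus present in both sets.

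**Figure D5:**
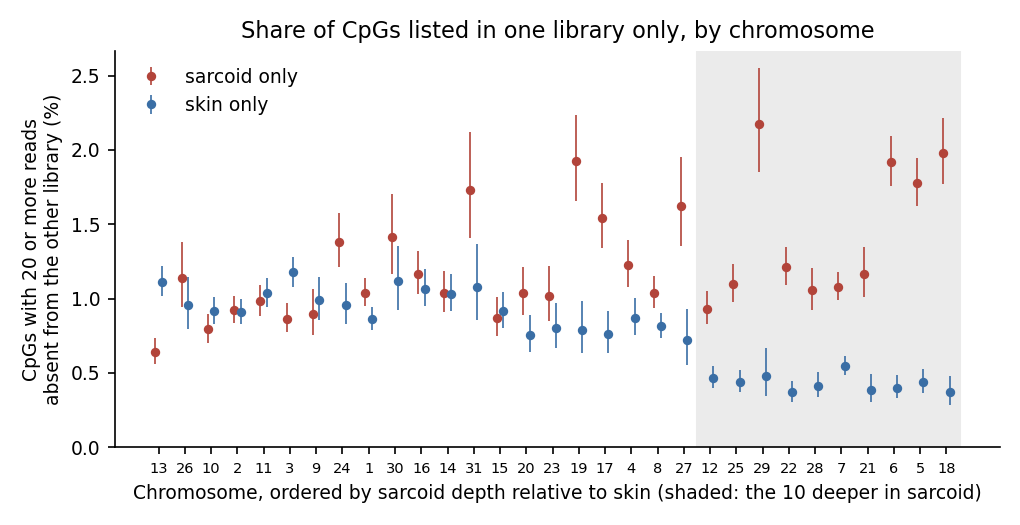
The percent of CpGs with 20 or more reads that were absent from the other library is plotted per chromosome, ordered by the depth of sarcoid relative to skin, with Wilson 95% intervals; the 10 deeper chromosomes are shaded. Over the shaded set the sarcoid-only share is 1.33% and the skin-only share 0.444%, and over the other chromosomes 1.03% and 0.951%.

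Members have no level in the other library, so the 2 libraries were compared at the members' shared neighbours. Over 875729 shared CpGs with 10 or more reads in both libraries, Fisher's exact test with Benjamini-Hochberg adjustment called 2.84% at q below 0.01 and a difference of 25 points or more, 1.89% lower and 0.954% higher in sarcoid. The test compares these 2 libraries and not the tissues. It used levels with strands merged and kept the CpGs at fragment ends, where end repair adds unmethylated cytosine. The part of these ends in the calls and mean differences was not tested. Within 1 kb of a sarcoid-only CpG, 338 of 9018 CpGs (3.75%, 3.38 to 4.16) were called, 245 of them lower and 93 higher in sarcoid. Their mean difference, sarcoid minus skin, was -3.13 points, with mean levels of 41.6% in sarcoid and 44.7% in skin. Over all shared CpGs it was -1.28 points.

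Near skin-only CpGs the share was close to the background. Of 25243 shared CpGs within 1 kb, 675 (2.67%, 2.48 to 2.88) were called, 415 lower and 260 higher in sarcoid, with a mean difference of -0.928 points. On the 10 deeper chromosomes 4.60% (4.0 to 5.30) of the shared CpGs near sarcoid-only ones were called, against 4.03% of all shared CpGs there, which lies within the interval. On the other 21 it was 3.06% (2.62 to 3.58), against 2.24%, which lies below it. The median depth near sarcoid-only CpGs was 33 reads in sarcoid and 43 in skin, against 31 and 41 over all, and its part in the higher share of calls was not tested.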

How the data were processed

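Each deposited list holds, per the file headers, the read count of every cytosine (its coverage) and the percent of these reads with C and with T. Per the labels' protocols, a lane was used for each library, with single-end reads of 75 bp. The submitters' processing notes name methylKit, BSMAP and FastQC with no version given. No genome build is given in the sources used here.

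The percent of C times coverage, rounded, gave methylated reads. Both strands of a CpG were summed, the minus-strand position minus 1. A CpG was absent if neither strand was listed. Shared CpGs were weighted to the members' coverage classes with fixed weights. The runs named were the 5 with most CpGs in each group, ties broken by reads, and the chromosomes named the 3 highest and 3 lowest. Depth of clusters was log2 of mean reads per CpG, sarcoid over skin. The median intervals came from order statistics. Fisher's exact test was two-sided and left out the 0.1% of shared CpGs with most reads, over 403 in sarcoid or 574 in skin. The coverage minimum, strands, chromosomes, run definition, distances and cluster gaps were varied. The members, lists and comparisons were chosen with earlier results of these data known.

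The tools were NumPy 2.4.6, pandas 2.3.3, numba 0.67.0, SciPy 1.17.1 and matplotlib 3.10.9 under Python 3.11.15. Fisher's test was checked against SciPy, its calls on simulated reads and the finding of runs on planted runs. The other steps were not tested on data with known answers.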

Additional observations from a re-analysis of the deposited data

How the results depend on the processing

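With a minimum of 10 reads, 2.42% of sarcoid and 3.88% of skin CpGs were absent from the other list, and with 40 reads 0.149% and 0.0495%. Members at a level of at most 20% then made up 21.8% (sarcoid only) and 25.7% (skin only) at 10 reads, and 28.2% and 18.2% at 40 reads. Members in runs made up 52.5% and 33.8% at 10 reads, and 37.2% and 14.3% at 40. Members in tiles of over 20 CpGs made up 6.70% and 19.7% at 10 reads, and 14.4% and 16.0% at 40. With CpGs of both strands alone, 1.52% and 0.489% were absent, 15.2% and 17.6% had a low level, 52.8% and 16.1% lay in runs, and 4.82% and 23.4% in dense tiles. Without the deeper chromosomes, 1.03% and 0.951% were absent, and 49% of sarcoid-only CpGs lay in runs. Runs of 10 or more held 2.09% and 3.81%, and runs that CpGs of low coverage did not break held 53.1% and 27.1%. With density from the library's own list, 5.02% of sarcoid-only CpGs lay in dense tiles. Depth near sarcoid-only runs was -0.0626 within 1 kb, -0.0309 within 100 kb, 0.0311 in clusters of at most 75 bp and 0.0444 in longer ones. Near skin-only runs it was -0.149, -0.0793, 0 and -0.0279. For both kinds of run, clusters of each length class were compared with shared CpGs of their own class. With 20 reads in both libraries, 5.48% of shared CpGs near sarcoid-only and 3.90% near skin-only CpGs were called, against 4.12% of all. The cause of these changes was not tested. Limiting gaps within a run to 100 bp moved no share in runs beyond its interval. The CpGs of most reads included no member, so leaving them out could not change the shares of members by level, run or tile. The shares absent from the other list stayed within their intervals. The median spans of 60 bp and 103 bp were the same with gaps of over 200 bp. That of 103 bp was also the same in clusters with the strands of a single fragment. Clusters of at most 75 bp, 1175 of the 1181 listed in sarcoid alone, meet this condition by definition. It therefore could not move the median of 60 bp. The condition of a single fragment's strands and the depth by cluster length were chosen after seeing the data. No paired analysis was possible because each tissue had 1 library. Depth limits what absence means: a cytosine with up to 4 reads on a strand was mostly not listed.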

Other observations

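The members with most reads, chosen after their values were seen, were read on a single strand. In sarcoid these were a CpG of chromosome 7 at 46167478 with 387 reads and a level of 0%, and CpGs of chromosome 16 at 43989478 and 43989483 with 147 reads each and levels of 95.2% and 83.0%. In skin they were CpGs of chromosome 2 at 90415915 with 122 reads and a level of 43.4%, at 90415889 with 121 reads and 62.8%, and at 106525704 with 95 reads and 83.2%.

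Runs also differed in level between the groups. Of the sarcoid-only runs, 61 (9.33%) had a level of at most 20% and 124 (19%) one of at least 80%. Of the skin-only runs these were 89 (34.2%) and 93 (35.8%). The level of a run merges the strands and can include fragment ends. All CpGs were read on both strands in 94.5% of the sarcoid-only and 17.3% of the skin-only runs. The part of fragment ends in this difference of level was not tested. The deeper chromosomes held 277 (42.4%) of the sarcoid-only and 48 (18.5%) of the skin-only runs. They held 35.2% of all CpGs with 20 or more reads in sarcoid and 32.1% of those in skin.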
